A study of Mus musculus with 8 samples.

Results

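The Polycomb genes *Ezh1*, *Ezh2*, *Eed*, *Suz12*, *Jarid2*, *Mtf2*, *Ring1*, *Pcgf6* and *Kdm2b* were followed in cultured mouse embryonic stem (ES) cells. They were chosen by name as the PRC2 core (4 genes), accessory subunits of PRC2 (2 genes) and members of PRC1 (3 genes), and all 9 were present among the 23337 names of the table. The RNA of 4 ES cell clones, numbered 6, 20, 30 and 36, was sequenced at passage 6 and again at passage 16, which gave 8 libraries. According to the labels, all of them were wild-type cells of strain 129S1, derived from blastocysts and grown in DMEM with LIF, and the labels tell the groups apart by passage. The methods name a second strain, *C57BL6*, for cultured ES cells and do not say which cells were sequenced. Each clone is 1 culture, and n = 4 counts clones. The values are read counts divided by 1 size factor per library, called normalized counts below, and library totals were between 21394069 and 34295561 reads.

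Polycomb proteins keep developmental genes silent through marks on histones. In PRC2, EZH2 or its paralogue EZH1 is the methyltransferase for lysine 27 of histone H3, and EED and SUZ12 are needed for its activity. JARID2 and MTF2 help to bring PRC2 to its targets. PRC1 carries a RING-type ubiquitin ligase, RING1 or its paralogue RNF2 (also called RING1B), together with one of several PCGF proteins, and marks histone H2A. KDM2B binds CG dinucleotides free of DNA methylation through its zinc finger and brings a variant PRC1 to them. ES cells depend on PRC2 less for self-renewal than for orderly differentiation.

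Promoter sequences were taken for the members with low levels, *Ezh1* and *Ring1*, for *Suz12*, and for *Rnf2*, the paralogue of *Ring1*, because CG dinucleotides (in capitals) are what KDM2B reads. Each line holds the 250 bases upstream of the RefSeq start site in GRCm38.p6, 5′ to 3′ on the strand of the gene. None of these windows overlapped an annotated exon. They lie at chr11:101226464-101226713 (minus strand) for *Ezh1*, chr17:34024681-34024930 (minus) for *Ring1*, chr11:79992856-79993105 (plus) for *Suz12* and chr1:151500992-151501241 (minus) for *Rnf2*.
Ezh1: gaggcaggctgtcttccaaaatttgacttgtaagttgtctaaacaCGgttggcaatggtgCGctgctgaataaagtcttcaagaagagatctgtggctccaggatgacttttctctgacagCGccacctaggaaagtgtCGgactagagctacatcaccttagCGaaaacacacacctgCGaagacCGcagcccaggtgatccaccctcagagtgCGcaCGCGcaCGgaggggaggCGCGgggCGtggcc
Ring1: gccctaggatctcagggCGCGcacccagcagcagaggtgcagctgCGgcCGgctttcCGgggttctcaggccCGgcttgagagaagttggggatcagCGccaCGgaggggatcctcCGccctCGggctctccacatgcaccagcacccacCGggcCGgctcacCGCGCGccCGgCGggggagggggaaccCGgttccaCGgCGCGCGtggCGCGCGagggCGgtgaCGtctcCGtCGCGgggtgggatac
Suz12: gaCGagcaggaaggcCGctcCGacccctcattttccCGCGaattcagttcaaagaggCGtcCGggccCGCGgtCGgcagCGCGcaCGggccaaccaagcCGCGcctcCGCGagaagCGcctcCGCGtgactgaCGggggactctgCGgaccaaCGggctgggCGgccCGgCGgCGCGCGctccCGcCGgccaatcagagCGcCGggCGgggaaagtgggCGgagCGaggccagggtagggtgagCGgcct
Rnf2: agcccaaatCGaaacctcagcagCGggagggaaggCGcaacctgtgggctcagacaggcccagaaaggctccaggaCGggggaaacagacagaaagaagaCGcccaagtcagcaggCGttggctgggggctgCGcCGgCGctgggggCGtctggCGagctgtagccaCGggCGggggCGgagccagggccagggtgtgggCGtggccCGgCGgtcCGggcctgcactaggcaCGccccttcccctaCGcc
The *Ezh1* window held 14 CG, that of *Ring1* 30, that of *Suz12* 37 and that of *Rnf2* 20, against a median of 6 over 32851 promoters of the same length. The count was at or under that of *Suz12* in 98.1% of those promoters and at or under that of *Ezh1* in 72.7%. The letters TTTCCCGC, one form of the E2F site, were searched on both strands and found once in the *Suz12* window and in 0.895% of all promoters. It was in none of the other 3 windows. The CCAAT box was found once in the *Suz12* window and in 33.8% of all promoters, and in none of the other 3 windows. Windows of the other members were scanned too and are not printed. That of *Ezh2* held 3 CCAAT boxes, and some windows of *Jarid2*, *Mtf2* and *Kdm2b* held 1. Those of *Eed* and *Pcgf6* held none. Annotated exons covered 250 bases of the *Eed* window, 125 of the *Ezh2* window and 207 of a *Kdm2b* window. The *Mtf2* window with a CCAAT box began inside the gene, at chr5:108077915, and held 2 CG. Its window at the start of the gene held 23 CG and no CCAAT box. A *Kdm2b* window held 38 CG. Of all windows scanned, only that of *Suz12* held the E2F form above, and none held another form searched. The CCAAT box and CG count do not set *Suz12* apart from all other members. The data hold no measure of methylation or binding at these sites.

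Before any comparison, the rows were checked for register between the libraries. In part of the table, the counts of a library stand beside the wrong names. The names open to this fault form 644 sets such as *Rnf2* and *Rnf24*, where a digit after a shorter name gives a longer one. Together these sets, called displaced groups below, take in 5079 names (21.8%). Of these, 1600 were moved in any library when the row order was restored. The others, such as *Phf19*, kept their deposited counts. All 9 genes lie outside these groups, so their counts were the same as deposited and with the row order restored. Inside them lie 5 other listed names of the complexes, namely *Phf1*, *Phf19*, *Rnf2*, *Wdr5* and *Hdac1*. *Rnf2*, the main RING ligase gene of ES cells, shows the fault. As deposited, it had 4753, 529, 472 and 4525 normalized counts at passage 6 (clones 6, 20, 30 and 36) and 489, 515, 4185 and 491 in the later passage. With the row order restored it had between 4113 and 4788 in the 8 libraries. *Hdac1*, a histone deacetylase gene, was deposited at 82.0, 222 and 113 in 3 libraries and was between 8238 and 10711 once restored. Values of these 5 genes, and of listed targets and markers inside such groups, are given below with the row order restored. The order taken was the one closest to the passage 6 library of clone 6, so that likeness between restored libraries is in part built in.

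**Figure D1:**
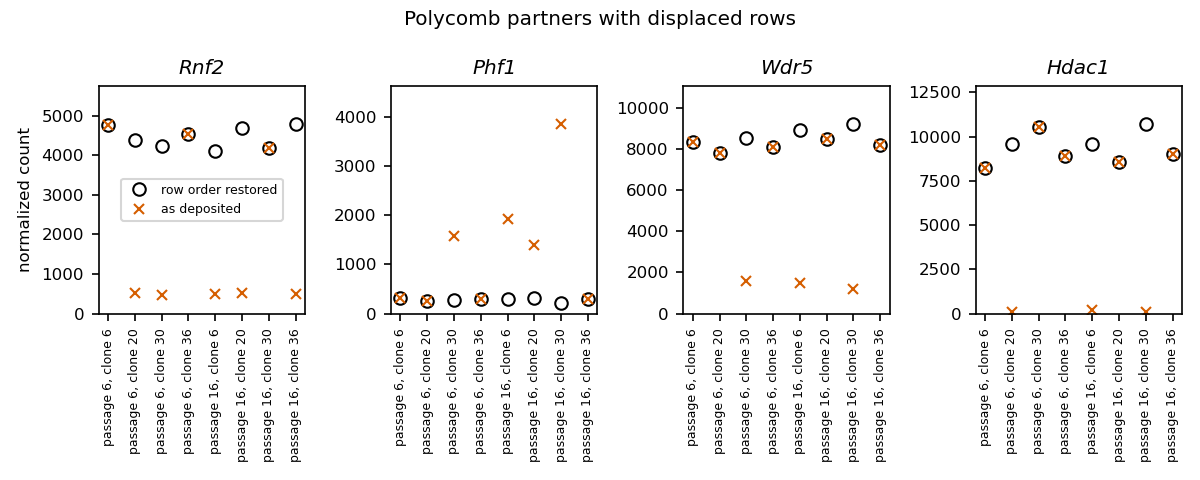
Normalized counts of 4 Polycomb partner genes (vertical axes, from 0) in each of the 8 libraries (horizontal axes), as deposited (crosses) and with the row order restored (open circles). *Rnf2* as deposited lies near 500 in 5 libraries and at 4185 to 4753 in the other 3, while the restored values stay between 4113 and 4788.

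Levels were compared between genes per length, as RPKM, the reads scaled by exon length in kilobases (GENCODE) and by library total. The length was that of all annotated exons of a gene merged, while the paper counted reads on the UCSC annotation. Orders and ratios between genes depend on these lengths. In normalized counts, *Suz12* (8098 to 11036) was above *Eed* (4771 to 6358). Of the PRC2 genes, those of the core other than *Ezh1* and both accessory ones stood at a like level. *Eed* had 93.6 RPKM on average over the 8 libraries (83.0 to 108), *Mtf2* 89.9 (79.4 to 104), *Jarid2* 89.7 (78.3 to 100.1), *Suz12* 79.3 (65.7 to 89.9) and *Ezh2* 75.6 (68.4 to 98.4). The ranges of neighbours in this order overlapped across libraries. Within libraries, *Eed* and *Mtf2* were each above *Suz12* in 8 of 8 and above *Ezh2* in 7 of 8, and *Jarid2* was above each of them in 7 of 8. *Eed*, *Mtf2* and *Jarid2* were each above one another in 4 of 8, and *Suz12* was above *Ezh2* in 5 of 8. Below them, *Pcgf6* had 36.7 RPKM (32.8 to 40.5), *Kdm2b* 30.2 (28.8 to 32.3), *Ring1* 6.57 (5.99 to 6.95) and *Ezh1* 4.37 (3.87 to 4.91), and from *Ezh2* downwards no 2 neighbours overlapped. The histone-binding partners *Rbbp7* and *Rbbp4*, which also serve other chromatin complexes, were higher than all 9 genes at 183 and 125 RPKM.

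The paralogues of each enzyme were far apart. *Ezh2* was at least 14.5 times as high per length as *Ezh1* in every library, with a median ratio of 17.9, and *Ezh1* made up between 4.75% and 6.47% of their sum. The lengths used were 2802 bases for *Ezh2* and 6081 for *Ezh1*, whose mean normalized counts at passage 6 were 5632 and 743. This ratio was 16.6 ± 2.10 (SD, n = 4) at passage 6 and 18.0 ± 1.60 at passage 16 (exact two-sided permutation test, p = 0.314). With the row order restored, *Rnf2* was between 6.36 and 8.46 times as high as *Ring1*, with 7.17 ± 0.516 at passage 6 and 7.27 ± 1.02 at passage 16 (exact permutation test, p = 0.80). The restored values were chosen for closeness to a passage 6 library, so this test cannot decide whether the ratio differed between passages. Where the deposited *Rnf2* row was in place, the ratio was 7.43 and 7.62 (passage 6, clones 6 and 36) and 6.46 (passage 16, clone 30). In both pairs every library had the same paralogue on top, for *Rnf2* after restoring. Among the 6 *Pcgf* genes, which set the kind of PRC1, *Pcgf6* was the highest with between 35.6% and 42.7% of their sum per length. *Pcgf2* followed at 27.6 RPKM, *Bmi1* at 10.4, *Pcgf3* at 9.57, *Pcgf1* at 8.01 and *Pcgf5* at 3.78. The *Pcgf6* share was 38.8% ± 2.81 at passage 6 and 37.7% ± 1.91 at passage 16 (SD, n = 4; exact permutation test, p = 0.571).

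**Figure D2:**
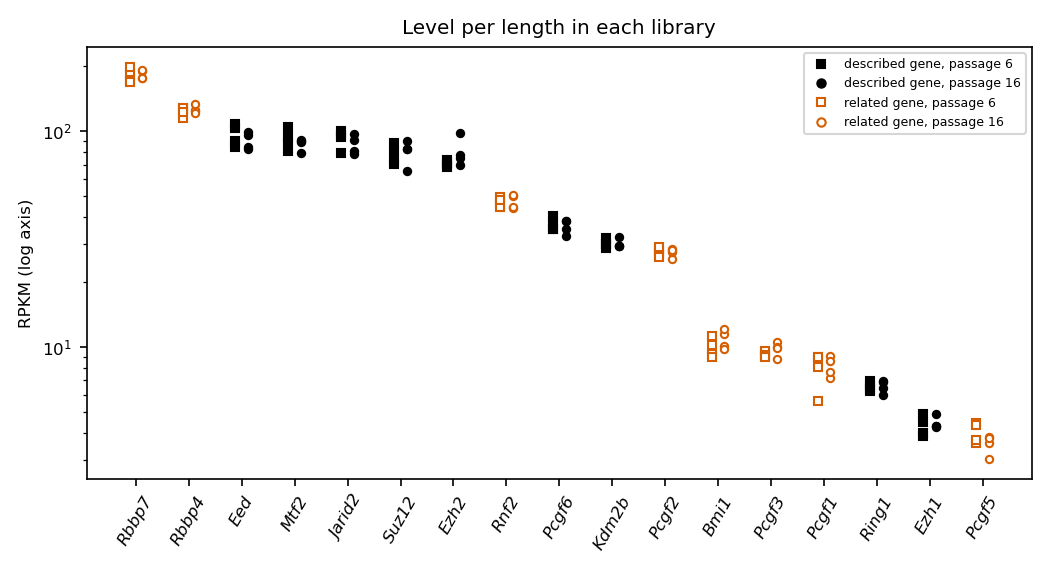
Level per length in RPKM (vertical axis, logarithmic) of the 9 Polycomb genes (filled) and 8 related genes (open), with 1 point for each library at passage 6 (squares) and passage 16 (circles). *Ezh1* and *Ring1* lie at 3.87 to 6.95 RPKM, well under *Ezh2* (68.4 to 98.4) and *Rnf2* (44.1 to 50.7).

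Passage 16 was then compared with passage 6, the comparison the study made to look for changes of gene expression upon expansion *in vitro*. None of the 9 genes passed the test, in which limma was fitted to log2(normalized count + 1) over 14791 names with Benjamini-Hochberg adjustment. Their adjusted p-values were between 0.947 and 0.992. Of all names tested, 1 passed (0.00676%). This was *Sox18*, whose rows are displaced. No name passed with the row order restored, for which the admissible order closest to the passage 6 library of clone 6 was taken throughout. At an unadjusted p under 0.05 limma gave none of the 9 genes and 3.5% of all names, and edgeR and DESeq2 on the recovered reads also called none of the 9 at an adjusted p under 0.05. There were 3 genes with a higher and 6 with a lower estimate at passage 16. The median of their log2 fold changes was -0.03, beside -0.00 over all names tested outside the displaced groups. None of the 9 was higher or lower at passage 16 in 4 of 4 clones, against 17.3% of all names outside those groups, and for none did the 2 passages not overlap, against 2.37%.

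*Ezh2* had the largest estimate. It had 5636, 5461, 5788 and 5644 normalized counts at passage 6 in clones 6, 20, 30 and 36, and 7680, 5414, 5961 and 6170 at passage 16. The libraries of passage 6 lay close together, and at passage 16 that of clone 6 stood above the others. The means were 5632 ± 134 and 6306 ± 970 (SD, n = 4), the log2 fold change was 0.15 ± 0.10 (SE), and the adjusted p by limma was 0.947 (exact two-sided permutation test, p = 0.20). Its 95% interval ran from -0.08 to 0.38, or from 0.948 to 1.30 fold. Without the passage 16 library of clone 6 the log2 fold change was 0.05. *Ezh2* lies at chr6:47530274-47595270 on the minus strand (RefSeq, GRCm38, as for all positions given here). In clone 6, the 585 chromosome 6 genes compared had a median log2 difference of 0.28 between the passages (quartiles 0.04 and 0.50), while the medians of 19 other chromosomes lay between -0.10 and 0.06. The log2 difference of *Ezh2* itself was 0.45 there, within those quartiles. In clones 20, 30 and 36 the chromosome 6 medians were 0.03, -0.03 and 0.05, and the *Ezh2* differences were -0.01, 0.04 and 0.13. With the median of each chromosome taken off within each clone, the log2 fold change of *Ezh2* was 0.07. The number of copies of chromosome 6 was not measured, and its part in the value of clone 6 was not tested. The values do not settle that both libraries labelled clone 6 come from 1 cell line, since their deviations correlated less with each other (r = 0.10) than with those of another clone (0.28), and this bears on every clone 6 difference given here.

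**Figure D3:**
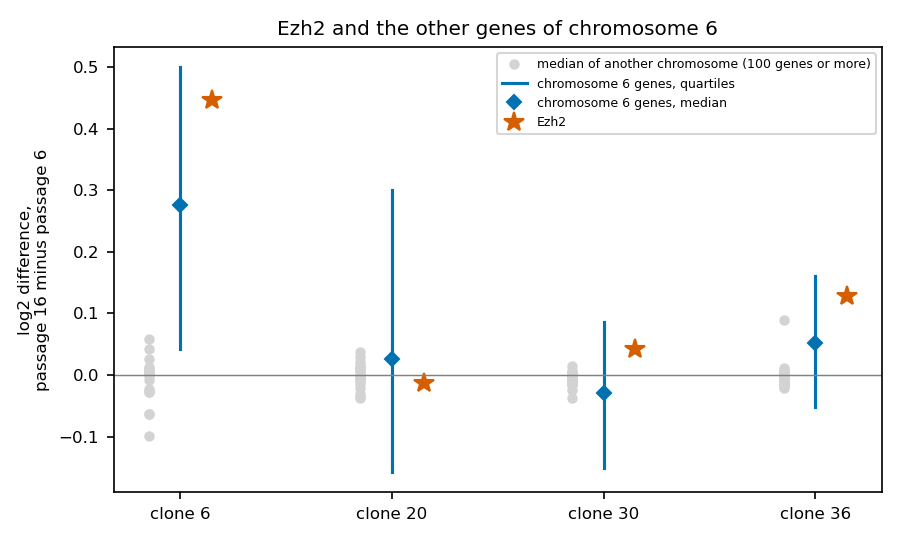
Difference between the passages on the log2 scale (vertical axis) in each clone (horizontal axis) for *Ezh2* (stars), for the 585 chromosome 6 genes (diamond, median, with a line from the lower to the upper quartile) and for the other chromosomes with at least 100 genes (grey points, medians). In clone 6 both the chromosome 6 median (0.28) and *Ezh2* (0.45) lie above the medians of the other chromosomes.

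The other core genes of PRC2 differed in direction between clones. *Ezh1* (chr11:101191115-101226463, minus strand), the minor methyltransferase gene, had 846, 781, 682 and 664 normalized counts at passage 6 and 832, 724, 738 and 731 at passage 16 in the same order of clones. Both clone 6 libraries were the highest of their passage. Its log2 fold change was 0.03 ± 0.10 (SE). *Eed* (chr7:89954654-89980976, minus strand), the subunit that reads the methylated histone tail, had 5353, 6358, 6014 and 4921 at passage 6 and 5541, 4771, 5780 and 4938 at passage 16. Clone 20 had the highest value at passage 6 and the lowest at passage 16, a log2 difference of -0.41, while clone 36 differed by 0.00. Its log2 fold change was -0.10 ± 0.10, or -0.00 when clone 20 was left out. *Suz12* (chr11:79993106-80034123, plus strand), the scaffold of the core, had 11036, 9174, 8662 and 10003 at passage 6 and 10944, 10073, 8098 and 10279 at passage 16. Clone 6 was the highest and clone 30 the lowest at both passages. Its log2 fold change was 0.02 ± 0.11, with 2 clones higher and 2 lower. The per-length ratio of *Suz12* to *Eed* was between 0.662 and 0.998, and was 0.824 ± 0.165 at passage 6 and 0.894 ± 0.157 at passage 16 (SD, n = 4; exact permutation test, p = 0.629).

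Both accessory genes had lower estimates at passage 16, within the spread of the clones. *Jarid2* (chr13:44730774-44921643, plus strand), whose product lacks the demethylase activity of its family, had 17621, 16573, 13723 and 16727 normalized counts at passage 6 and 13956, 16706, 13593 and 15810 at passage 16. The log2 difference was -0.34 in clone 6 and between -0.08 and 0.01 in the others, and clone 30 was lowest at both passages. Its log2 fold change was -0.11 ± 0.10 (SE), or -0.03 when clone 6 was left out. *Mtf2* (chr5:108065660-108109219, plus strand), a Polycomb-like protein gene, had 10890, 12077, 9262 and 10241 at passage 6 and 10348, 10199, 9088 and 10272 at passage 16. Clone 20 was the highest at passage 6 and within the range of the others at passage 16, and clone 30 was again lowest at both passages. Its log2 fold change was -0.09 ± 0.09, or -0.03 when clone 20 was left out. *Jarid2* and *Mtf2* mark different forms of PRC2, and their per-length ratio was 1.01 ± 0.0813 at passage 6 and 0.992 ± 0.0793 at passage 16 (SD, n = 4; exact permutation test, p = 0.857).

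The PRC1 genes varied least. *Kdm2b* (chr5:122870664-122989270, minus strand) had 4828, 5022, 5292 and 4995 normalized counts at passage 6 and 4788, 4790, 5328 and 4870 at passage 16. Its highest library was 1.11 times its lowest, and clone 30 was highest at both passages. The log2 fold change was -0.03 ± 0.05 (SE) and its 95% interval excluded changes beyond 0.904 and 1.07 fold, the narrowest interval of the 9. *Ring1* (chr17:34020792-34024680, minus strand) had 389, 371, 398 and 361 at passage 6 and 393, 364, 394 and 344 at passage 16, with clone 36 lowest at both. Its log2 fold change was -0.02 ± 0.08. It had between 291 and 485 reads per library, at which counting error alone is 0.075 on the log2 scale, as large as the SD of its 8 values (0.075). *Pcgf6* (chr19:47033617-47050939, minus strand), which belongs to a variant PRC1 of ES and germ cells, had 2178, 2348, 2465 and 2140 at passage 6 and 2302, 1969, 2344 and 2152 at passage 16. Its log2 difference was -0.25 in clone 20 and 0.08 in clone 6, and the log2 fold change was -0.06 ± 0.07, or 0.00 when clone 20 was left out. The SD of the 8 log2 values of *Kdm2b* was larger than that of 5.44% of the names tested outside the displaced groups, that of *Ring1* larger than 10.3%, and that of *Ezh2* larger than 44.8%. Over the 9 genes, every 95% interval lay between 0.796 and 1.30 fold, so that a change of the mean beyond these bounds lay outside the interval for each of them.

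**Figure D4:**
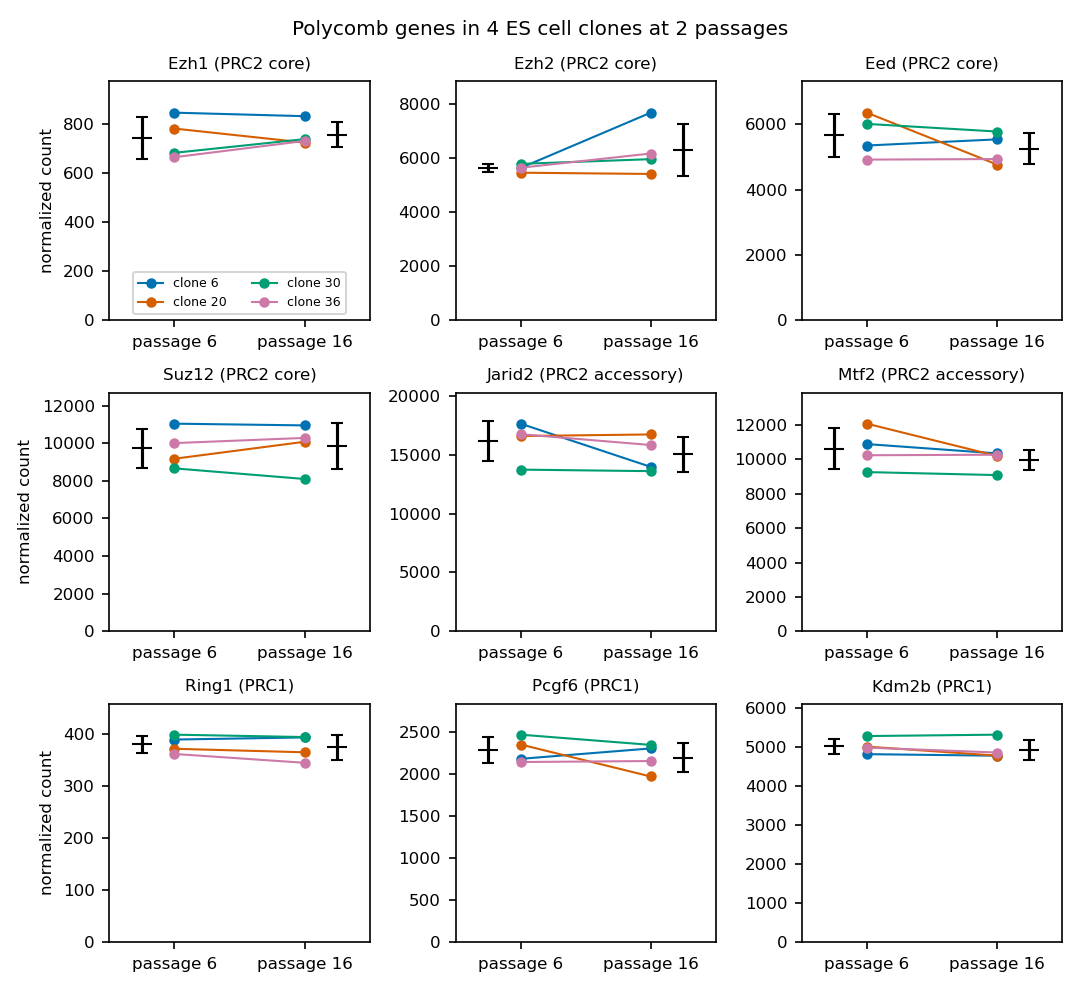
Normalized counts (vertical axes, from 0) of the 9 Polycomb genes at passage 6 and passage 16, with a line for each of the 4 clones and the mean ± SD of each passage in black at the sides (n = 4). No gene differs in the same direction in 4 of 4 clones, and the largest single step on the log2 scale is that of *Ezh2* in clone 6, from 5636 to 7680.

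**Figure D5:**
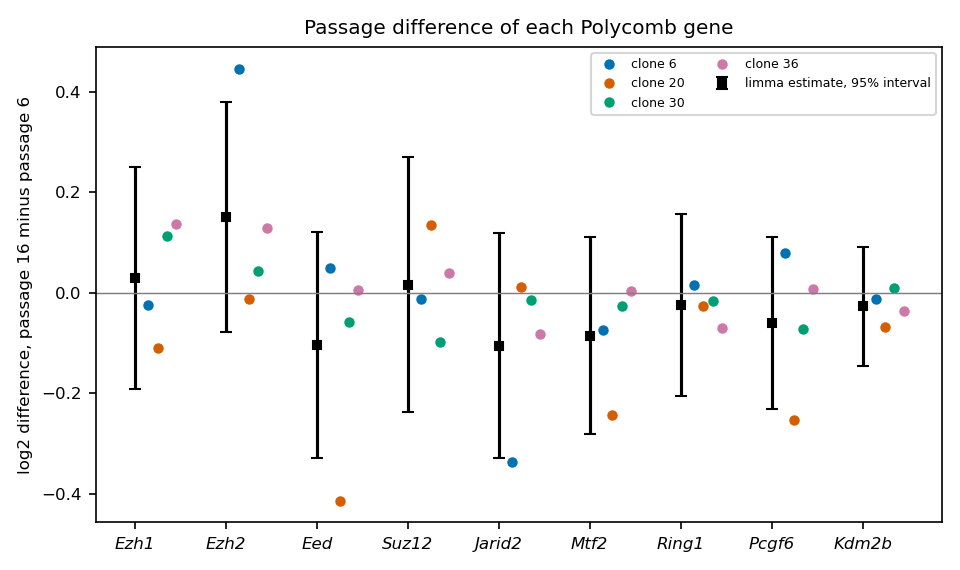
Log2 difference between passage 16 and passage 6 (vertical axis) for each gene (horizontal axis), as the limma estimate with its 95% interval (black squares) and as the difference within each of the 4 clones (coloured points). Every interval includes 0, and the differences within clones run from -0.41 (*Eed*, clone 20) to 0.45 (*Ezh2*, clone 6).

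Differences between the clones were tested with passage in the same model. None of the 9 genes passed the moderated F test of limma after adjustment, beside 20 of 14791 names (0.135%), and 62 of 12283 names when those of the displaced groups were left out. At an unadjusted p under 0.05 the test gave 1 of the 9 genes and 10.7% of all names. That gene was *Suz12* (adjusted p = 0.393 by limma, or 0.194 with the row order restored). It had mean normalized counts of 10990.0, 9623, 8380 and 10141 in clones 6, 20, 30 and 36. Clone 30 also had the lowest means of *Jarid2* (13658) and *Mtf2* (9175), with adjusted p-values of 0.513 and 0.477 by limma. It had the highest means of *Kdm2b* (5310), *Eed* (5897), *Ring1* (396) and *Pcgf6* (2404). Their adjusted p-values by limma were 0.536, 0.627, 0.638 and 0.651. Across the 8 libraries, which share clones in pairs, the log2 values of *Suz12* and *Kdm2b* had r = -0.94, those of *Eed* and *Pcgf6* r = 0.89, and those of *Jarid2* and *Mtf2* r = 0.70. Of the 36 pairs of the 9 genes, 21 had r above 0 and the median r was 0.13. These correlations describe 8 libraries and carry no test.

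Among 9443 other names with a mean of at least 100, the names with patterns most like each gene over the 8 libraries were found by Pearson's r of the log2 values. They were *Sumf1* (r = 0.99) and *Timm17b* (0.98) for *Ezh2*, *Ogt* and *Kctd9* (both 0.99) for *Jarid2*, *Fcho2* (0.98) and *Casd1* (0.97) for *Suz12*, and *Cep55* (0.97) and *Bmp4* (0.96) for *Mtf2*. For *Eed* they were *Shkbp1* and *Fpgs* (both 0.96), for *Pcgf6* *Naa10* and *Abcf1* (both 0.97), for *Kdm2b* *Slc43a1* and *Rtn4rl1* (both 0.98), for *Ring1* *1700108F19Rik* and *Ighmbp2* (both 0.95), and for *Ezh1* *Rab4b* (0.93) and *Gyltl1b* (0.92). With so many names and 8 libraries, values of this size are found for each of the 9 genes.

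No other gene of the complexes passed the test by passage. Of the other PRC2 genes, 7 were tested and none passed. *E130012A19Rik*, an older symbol of *Epop*, an accessory gene of ES cell PRC2, had 6157 ± 235 normalized counts at passage 6 and 5911 ± 682 at passage 16 (SD, n = 4). *Rbbp4* had 15370.0 ± 685 and 15603 ± 660, and *Rbbp7* 12072 ± 891 and 12077 ± 530. Of the other PRC1 genes, 38 were tested and none passed, with 20 higher and 15 lower among the 35 outside the displaced groups and a median log2 fold change of 0.03. Those with a like direction in 4 of 4 clones and the largest estimates were *Bcorl1* (0.24 ± 0.11, SE) and *Scml2* (0.22 ± 0.14), both higher at passage 16, and *Mga* (-0.25 ± 0.13) and *Phc3* (-0.17 ± 0.13), both lower. MGA is the DNA-binding partner of PCGF6 in its PRC1. *Mga* had 9693, 10029, 7702 and 9915 at passage 6 and 7720, 9002, 6242 and 8527 at passage 16, lower in every clone, with an adjusted p of 0.947 by limma. DESeq2 with the clone as a block called it, at an adjusted p of 4.28e-04, or 0.0486 with the row order restored.

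The antagonists, histone H3 lysine 27 demethylases and the H2A deubiquitinase with its partners, held 7 tested genes, of which none passed by passage. Besides *Uty*, only *Asxl2*, a partner of the deubiquitinase BAP1, was lower in 4 of 4 clones. The log2 fold change of *Asxl2* was -0.19 ± 0.09 (SE), with an adjusted p of 0.947 by limma. *Uty*, the Y-linked relative of the demethylase gene *Kdm6a*, passed the test by clone (adjusted p = 0.0126 by limma). In clone 20 it had 862 normalized counts at passage 6 and 792 later, in clone 30 it had 902 and 742, and clones 6 and 36 had at most 2.37 at either passage. The call was lost in edgeR and when clone 20 or clone 30 was left out.

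As targets, 40 genes known to carry the PRC2 mark in ES cells were listed, and 25 of them reached a mean of 10. None passed the test. Of the 23 outside the displaced groups, 18 were higher and 5 lower at passage 16, with a median log2 fold change of 0.37, where 6092 of 12283 names were higher. The 18 are not independent genes, since they include neighbours in clusters, namely *Hoxa2*, *Hoxa3*, *Hoxa5* and *Hoxa7*, and *Hoxb2*, *Hoxb4* and *Hoxb9*. *Hoxb9* had 155 ± 8.18 normalized counts at passage 6 and 201.0 ± 9.16 at passage 16 (SD, n = 4), a log2 fold change of 0.37 ± 0.09 (SE; unadjusted p = 0.00375, adjusted p = 0.947 by limma). *Hoxb2* had 89.5 ± 35.4 and 152 ± 43.5 (log2 fold change 0.81 ± 0.33, adjusted p = 0.947). Among the targets not on chromosome 6, which still held these *Hoxb* genes, 14 of 19 were higher, with a median of 0.27. The endoderm regulators *Gata4* and *Gata6* had lower means later, 759 after 860 normalized counts for *Gata4* and 599.5 after 634 for *Gata6*. No target had more than 1586 normalized counts in any library, the highest being *Gata4*.

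The ES cell markers were high in every library, and reads of genes listed as markers of other cells were present beside them. Whether such cells were present was not tested. Those lists were uneven in level. Median normalized counts over the 8 libraries were 12234 for *Lama1* (primitive endoderm list) and 2514 for *Nes* (epiblast and early mesoderm list). In contrast, the medians were 31.3 for *Cdx2* and 6.49 for *Elf5* (trophoblast list), and 34.1 for *T* and 11.6 for *Mixl1* (epiblast and early mesoderm list). The summed normalized counts of 8 ES cell markers lay between 98222 and 105600 at passage 6 and between 104330 and 106950 at passage 16. *Nanog* (log2 fold change 0.27 ± 0.07, SE) and *Klf4* (0.28 ± 0.08) were higher at passage 16 in 4 of 4 clones, with an adjusted p of 0.947 for both by limma. DESeq2 with the clone as a block called *Nanog* at an adjusted p of 2.14e-05, or 0.0216 with the row order restored. The sum over 7 primitive endoderm markers lay between 8685 and 32243 at passage 6 and between 7116 and 23776 at passage 16, and clone 30 was lowest at both. The 7 fibroblast markers summed to 3746 to 5781 and 4388 to 5810, 6 trophoblast markers to 10480 to 14250 and 5186 to 15713, and 6 markers of epiblast and early mesoderm to 4732 to 6143 and 3430 to 5148. The passage 16 library of clone 6, which also held the highest *Ezh2* value, was lowest for both the trophoblast markers (5186, the other 7 at least 10480.0) and the epiblast and early mesoderm markers (3430, the other 7 at least 4356). The trophoblast marker *Tfap2c* was not low there, at 2538 after 1984 at passage 6. *Krt8* and *Krt18*, trophoblast markers inside the displaced groups, had lowest values over the 8 libraries of 1571 and 884, beside medians of 6283 and 4172. Of the fibroblast, trophoblast, and epiblast and early mesoderm lists, *Postn* (log2 fold change 0.12) and *Tfap2c* (0.29) were higher and *Pou3f1* (-0.40) lower at passage 16 in 4 of 4 clones. None of them passed the test. Of them, *Tfap2c* was called by DESeq2 with the block, at an adjusted p of 8.51e-05, or 0.0372 with the row order restored. In bulk RNA, a change in the share of such cells and a change within ES cells cannot be told apart, and the part of these markers in the values above was not tested.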

How the data were processed

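PolyA+ RNA was made into strand-specific libraries with a dUTP kit and sequenced as single-end reads. Per the labels and methods, the authors aligned the reads to GRCm38 with TopHat2 2.0.10, Bowtie 1.0.0 and SAMtools 0.1.19, allowing multiple hits, counted them per gene with HTSeq 0.5.3p9 and tested with DESeq2. Whether the counting used the strand was not given in the sources used here, so that reads of the antisense transcripts overlapping *Ezh2*, *Eed*, *Suz12*, *Mtf2* and *Kdm2b* cannot be told apart from theirs. The values deposited are a signal for each gene, read counts that the authors had scaled by the size factor of the library. Undoing the scaling gave whole reads (within 0.01) for 100% of values.

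Samples were grouped by the passage and clone in their titles. Passages were compared with limma 3.58.1 under R 4.3.3, with a mean-variance trend in eBayes, on log2(value + 1) over names with a mean of at least 10, two-sided, without a clone term, with Benjamini-Hochberg adjustment over all names tested at 0.05. Fold changes of low genes come out too small on that scale. Clones were compared with a moderated F test of 3 clone coefficients. Alternatives used edgeR 4.0.16 and DESeq2 1.42.0 on the recovered reads. Scripts were tested on simulated data. Within each displaced group and library, counts were put back so that the lines of name and count stood in alphabetical order. Of the orders that met this, the one with the smallest summed log2 distance from the passage 6 library of clone 6 was taken. A single group of 480 *Olfr* names was left as deposited.

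The members and gene lists were chosen with earlier results of these data known. Named genes were the 9 members, their paralogues and core partners, genes past the threshold, and in each list the 2 largest changes each way with a mean of at least 100 and a like direction in 4 of 4 clones. *Sox18*, *Gata4*, *Gata6*, *Hdac1* and *E130012A19Rik* were named with their values in view. The clone numbers of the labels were taken to pair the libraries, which the values leave unsettled for clone 6. Deviations from the passage means correlated between the passages of a clone with r = 0.10, 0.27, 0.70 and 0.43 for clones 6, 20, 30 and 36, and clone 6 had a higher r (0.28) with another clone. Names were matched to RefSeq for positions, 20756 by symbol and 2331 by synonym. Stretches of 50 bases shared with transcripts of other genes made up 12.5% of those of *Kdm2b*, 5.82% of *Eed*, 5.56% of *Mtf2* and at most 2.60% of the other members. Tables and plots were made in Python 3.11.15 (pandas 2.3.3, numpy 2.4.6, matplotlib 3.10.9, scipy 1.17.1).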

Additional observations from a re-analysis of the deposited data

Results flagged for a closer look

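Within the 4 libraries of a passage, 3 of the 18 groups of values held a library apart from the other 3, its gap to the nearest exceeding the 95% critical value of Dixon's test, and chance gives about 1 such group in 20. All 3 were at passage 16. *Ezh1* was highest in clone 6 (832 normalized counts, the others 724 to 738; gap 0.863 of the range). *Mtf2* was lowest in clone 30 (9088, the others 10199 to 10348; 0.888). *Kdm2b* was highest in clone 30 (5328, the others 4788 to 4870; 0.842). In each case the same clone was also the highest or lowest of the 4 at passage 6.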

How the results depend on the processing

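None of the 9 genes passed the threshold by passage or by clone under any alternative. Over 31 alternatives, adjusted p-values by passage were between 0.660 and 1.00, and 268 of 279 values kept the direction of the reported one. The other 11 came from leaving out a library or clone. Over the 12 such fits the log2 fold change ranged from -0.0226 to 0.0933 for *Ezh1*, from -0.0375 to 0.107 for *Suz12*, from -0.0498 to 0.0145 for *Ring1*, from -0.106 to 0.00488 for *Pcgf6*, from 0.0525 to 0.221 for *Ezh2*, from -0.169 to -0.000868 for *Eed*, from -0.182 to -0.0279 for *Jarid2*, from -0.149 to -0.0209 for *Mtf2* and from -0.0632 to -0.00253 for *Kdm2b*. The values nearest 0 came without the passage 16 library of clone 6 for *Ezh2*, without clone 20 for *Eed*, without clone 6 for *Jarid2*, and without the passage 6 library of clone 20 for *Mtf2* and that of clone 30 for *Kdm2b*. The replicate block, the clone as a term, called none of the 9 genes in limma, edgeR or DESeq2, and of the other genes named here it changed the calls of *Mga*, *Nanog* and *Tfap2c*, which DESeq2 called with the block, and of *Sox18*, lost with the block in limma.

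The count of all names past the threshold by passage was 1 in the reported fit, 0 with the replicate block in limma, 2 with the block in edgeR, 46 in DESeq2 and 98 with the block in DESeq2. It was 0 with the row order restored, with or without the block, 0 among names outside the displaced groups and 1 to 26 without single libraries or clones, most without clone 30. With the rows restored, edgeR gave 0 and DESeq2 with the block 40, both chosen after seeing the data. The count of other Polycomb genes was 0, and 1 (*Mga*) in DESeq2 with the block, with the rows as deposited or restored. By clone, 20 names passed, 89 with the rows restored, 62 outside the displaced groups and between 0 (without clone 20) and 95 (without clone 6) with a clone left out. The causes of these differences were not tested. Counting error per library was 0.075 on the log2 scale for *Ring1*, 0.053 for *Ezh1* and at most 0.031 for the other 7 genes, so that depth limits *Ring1* most.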
